A study of Mus musculus with 4 samples.

Results

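A set of 9 smooth muscle genes that mark peritubular myoid cells were followed in whole mouse testes at postnatal day 10. They were chosen by symbol as *Acta2*, *Actg2*, *Myh11*, *Cnn1*, *Tagln*, *Des*, *Mylk*, *Smtn* and *Myl9*, and matched 9 of the 55820 rows in the count table, 1 row each. None of them passed the test of a difference between control and Mps1sKO testes. *Acta2* was measured at 91.7% of its control level, *Tagln* at 80.2% and *Des* at 106% (a direction that turned when single libraries were left out), all with intervals that included no change.

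Messenger RNA was sequenced from 2 control and 2 Mps1sKO testis samples from male C57BL/6J mice, which the study calls biological replicates. In Mps1sKO mice, *Stra8*-Cre, which is active in germ cells from the early spermatogonial stage, deleted floxed exons of *Mps1* (listed as *Ttk*), the kinase of the spindle assembly checkpoint. The alleles carried by the control mice and the number of mice behind each library are not given in the sources used here, so the p-values measure the spread between these libraries only. The recombinase is directed to germ cells, whereas the genes described here belong to somatic muscle-like cells, so the comparison asks what was measured in a neighbouring cell type.

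Peritubular myoid cells form a flat contractile layer around each seminiferous tubule, and their contraction moves sperm and fluid along it. Contraction in smooth muscle starts when calcium and calmodulin activate myosin light chain kinase, which phosphorylates the regulatory light chain so that myosin can pull on actin filaments. The same genes are used by the muscle cells of blood vessels, which a whole testis also contains, and the 2 sources cannot be told apart here. Likewise, fewer muscle-like cells and less RNA per cell cannot be told apart in bulk RNA.

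The libraries held between 23311689 and 28607746 counts. *Ttk* was measured at 27.8 and 32.6 CPM (counts scaled to each library's total, with edgeR's TMM factor) in the control libraries and at 13.0 and 12.2 CPM in the Mps1sKO libraries, and fell (log2 fold change −1.26, edgeR adjusted p = 0.0461). Summed germ cell genes stood at 1345 and 1628 CPM in control and at 1234 and 952 CPM in Mps1sKO libraries, and summed Sertoli cell genes at 4784 and 5264 against 6455 and 5624 CPM. CPM is relative to all counts of a library, and the part of these other cell types in the smooth muscle values was not tested.

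A pair of stretches of sequence bear on the values below. The first is a window in the coding part of *Tagln*, shown because an annotated antisense gene, *Gm48529*, is transcribed through it on the opposite strand (chr9:45931356-45931385, GRCm38), so that a read from there matches both genes unless strand is kept. All 603 coding bases of the full-length *Tagln* coding transcript (1595 bases, 4 coding exons) lie inside *Gm48529* exons. Each gene's own strand is given 5′ to 3′.
Tagln: ggaacaggtggctcaattcttgaaggcagc
Gm48529: gctgccttcaagaattgagccacctgttcc

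The second is the *Myl9* promoter window (chr2:156775293-156775322, plus strand, GRCm38.p6), shown because it holds the only match to a strict CArG pattern among the promoters held for these genes. The CArG box is the element bound by serum response factor, which is known for driving smooth muscle genes. It lies 161 to 152 bases before the RefSeq start and is in capitals.
Myl9: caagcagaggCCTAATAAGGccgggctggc
RefSeq promoters running from 250 bases before to 50 bases after the start were held for 6 of the genes (*Acta2*, *Cnn1*, *Des*, *Mylk*, *Myl9* and *Smtn*), and 1 of the 6 held the box on either strand, against 1.63% of all 32851 promoters. The box was searched as CC, then 6 bases of A or T, then GG, so that a box with a G or C inside would be missed. A match is a stretch of letters and not a measured binding site, and its absence says only that the letters are not in that window.

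*Acta2* encodes the smooth muscle alpha-actin of the thin filament and lies on chromosome 19 (34241090 to 34255590, minus strand, GRCm38). It was measured at 593 and 586 CPM in the control libraries and at 557 and 524 CPM in the Mps1sKO libraries. Both Mps1sKO libraries were below both control libraries, and the gap between groups was larger than that between replicates, which was 1.01-fold in control and 1.06-fold in Mps1sKO. The log2 fold change of Mps1sKO against control was −0.12 (SE 0.0853, 95% interval −0.32 to 0.07) and was not significant (edgeR adjusted p = 0.665). The interval corresponds to 80.0% to 105% of the control level.

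*Actg2*, the gamma smooth muscle actin best known from the gut wall, lies on chromosome 6 (83512905 to 83536265, minus strand) and had far fewer counts. Its levels were 14.7 and 14.6 CPM in control and 13.5 and 14.1 CPM in Mps1sKO libraries, so that the groups again did not overlap. Its log2 fold change was −0.083 (SE 0.124, adjusted p = 0.857). Per kilobase of exon, *Acta2* exceeded *Actg2* 28.6-fold and 28.5-fold in control and 29.2-fold and 26.4-fold in Mps1sKO libraries. The ratio between the paired smooth muscle actins thus varied within Mps1sKO more than between the groups.

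The motor of the thick filament is the smooth muscle myosin heavy chain, encoded by *Myh11* on chromosome 16 (14194535 to 14291372, minus strand). *Myh11* was measured at 295.8 and 342.5 CPM in control and at 343.0 and 272.4 CPM in Mps1sKO libraries. The groups overlapped fully, and the Mps1sKO replicates differed from each other 1.26-fold, which was 14.2 times the counting error of that difference. Its log2 fold change was −0.053 (SE 0.130, adjusted p = 0.925).

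*Myl9*, on chromosome 2 (156775420 to 156781658, plus strand), encodes the regulatory light chain that the kinase phosphorylates. Its levels were 289.4 and 275.0 CPM in control and 289.0 and 294.0 CPM in Mps1sKO libraries. It had the narrowest range among the 9 genes (0.10 on the log2 scale over the 4 libraries), with a log2 fold change of 0.047 (SE 0.0850, adjusted p = 0.891). *Mylk*, the kinase itself, lies on chromosome 16 (34745210 to 35002420, plus strand). It was measured at 331.9 and 311.3 CPM in control and at 300.7 and 359.3 CPM in Mps1sKO libraries. The 2 Mps1sKO libraries were the lowest and the highest of the 4, and the log2 fold change was 0.037 (SE 0.108, adjusted p = 0.937).

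The remaining actin-binding proteins were calponin, transgelin and smoothelin. *Cnn1*, which encodes calponin, an actin-binding inhibitor of the myosin ATPase, lies on chromosome 9 (22099216 to 22109630, plus strand). It was measured at 28.7 and 27.5 CPM in control and at 21.8 and 26.5 CPM in Mps1sKO libraries. Both Mps1sKO values were below both control values, but they differed from each other 1.22-fold, more than Mps1sKO 2 differed from control. The log2 fold change was −0.22 (SE 0.126, 95% interval −0.51 to 0.078, edgeR adjusted p = 0.619), and it was −0.081 without Mps1sKO 1 and −0.37 without Mps1sKO 2.

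*Tagln* encodes transgelin (SM22 alpha), an actin cross-linking protein usually abundant in smooth muscle, and lies on chromosome 9 (45929619 to 45936058, minus strand). It had only 73 and 84 counts in control and 49 and 64 counts in Mps1sKO libraries, or 2.71, 2.91, 2.11 and 2.39 CPM. Both Mps1sKO libraries were below both control libraries, and the counting error of the lowest library was 14.3%. The log2 fold change was −0.32 (SE 0.214, edgeR adjusted p = 0.658), the lowest of the 9 genes, and its interval of 56.9% to 113% of control was also the widest.

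*Smtn*, the gene of smoothelin, a cytoskeletal protein of contractile smooth muscle, lies on chromosome 11 (3517523 to 3540612, minus strand). It was measured at 53.3 and 46.7 CPM in control and at 46.4 and 51.5 CPM in Mps1sKO libraries, with a log2 fold change of −0.030 (SE 0.109, adjusted p = 0.953). The groups overlapped over nearly their whole range. *Des*, the gene of desmin, the intermediate filament of muscle, lies on chromosome 1 (75360329 to 75368579, plus strand). Its levels were 26.0 and 20.8 CPM in control and 23.2 and 26.2 CPM in Mps1sKO libraries, so that the control libraries alone spanned almost the same range as all 4. Its log2 fold change was 0.079 (SE 0.140, adjusted p = 0.887), with an interval of 84.3% to 132% of control.

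**Figure D1:**
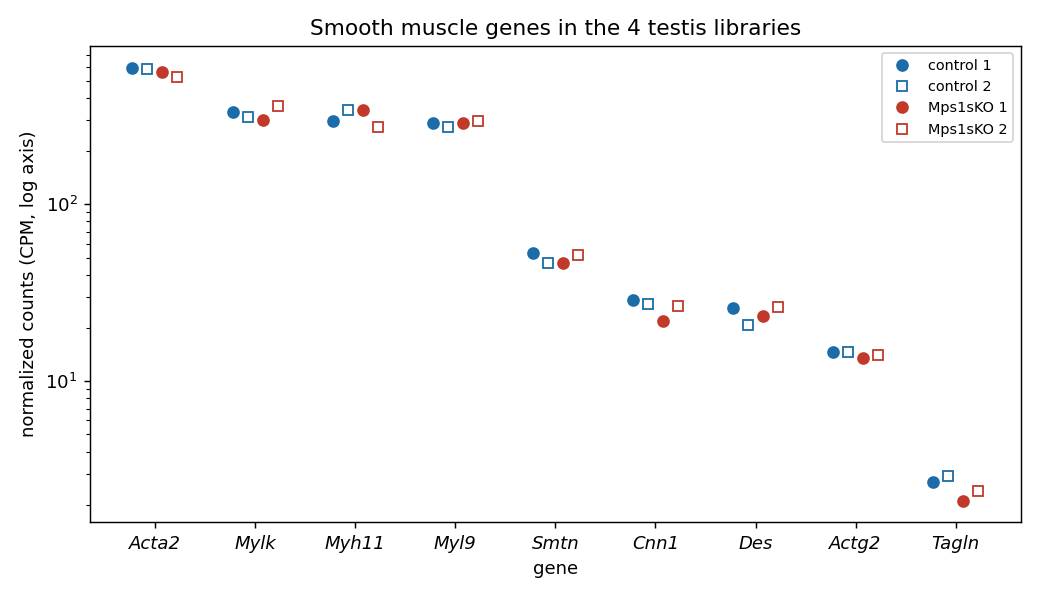
Library-scaled counts (CPM, log axis) of the 9 smooth muscle genes, with 1 point for each library (control blue, Mps1sKO red). *Acta2* was between 524 and 593 CPM and *Tagln* between 2.11 and 2.91 CPM, and the groups overlapped for 5 of the 9 genes.

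Across the 9 genes, 0 passed an adjusted p of 0.05 in edgeR, where 0.0292% of the 20561 tested genes did so. DESeq2 called 0 as well (adjusted p of 0.999988 for each). None met the study's cut-offs of an unadjusted p under 0.01 and more than a 1.5-fold difference, which 0.827% of all genes met. An unadjusted p below 0.05 was found for 0 of the 9, against 9.3% of all genes (5.37% lower and 3.92% higher in Mps1sKO). With 2 libraries a group, an exact permutation test of a single gene cannot go below p = 0.333. Changes to below 56.9% or above 132% of control lay outside all 9 intervals, these bounds being those of *Tagln* and *Des*.

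The log2 fold change was below 0 for 6 genes and above 0 for 3, with a median of −0.053, against 49.9% of all tested genes below 0 and a median of 0.00027. The split was 5 below and 4 above 0 without control 1 or Mps1sKO 1, and 7 below and 2 above without control 2 or Mps1sKO 2. The median was −0.079 without control 1, −0.089 without control 2 and −0.096 without Mps1sKO 2. Leaving out single libraries turned the sign of *Des* (−0.074 to 0.25), *Myh11* (−0.23 to 0.10), *Mylk* (−0.096 to 0.16) and *Smtn* (−0.12 to 0.068). In *Acta2*, *Actg2*, *Cnn1* and *Tagln*, 4 of the 9, both Mps1sKO libraries were below both control libraries, where 21.1% of all genes were placed so. The opposite arrangement was found in 0 of the 9 and in 20.3% of all genes. In *Acta2*, *Actg2* and *Tagln* the difference between group means also exceeded both gaps between replicates, which was so for 28.6% of all genes. In none of them did the difference pass the test.

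**Figure D2:**
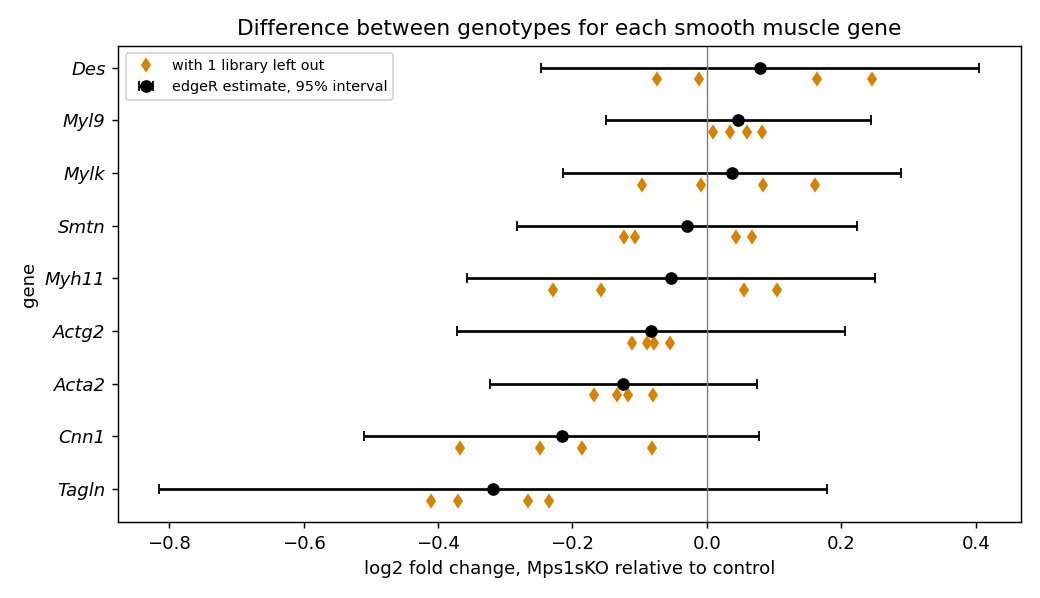
Log2 fold change (Mps1sKO against control) of the 9 genes from the edgeR fit, with bars for 95% intervals and diamonds for the estimates with 1 library left out. Each interval includes 0, and the estimates run from −0.32 (*Tagln*) to 0.079 (*Des*).

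The 9 genes did not move as 1 block between libraries. *Mylk*, *Smtn* and *Des* were high in control 1 and Mps1sKO 2 and low in control 2 and Mps1sKO 1. *Myh11* had the reverse order, being highest in Mps1sKO 1 and control 2. *Amh* in Sertoli cells also varied within groups, at 227.9 and 114.0 CPM in control and 207.0 and 336.5 CPM in Mps1sKO, and *Clu* at 2897 and 3582 against 4394 and 3315 CPM. Their part in the spread of the smooth muscle genes was not tested. The median gap between replicates on the log2 scale was 0.0927 in control and 0.176 in Mps1sKO for the 9 genes. For all tested genes it was 0.152 and 0.188. The sets were not matched for counts, so this does not show whether the spread was usual for genes of their level.

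**Figure D3:**
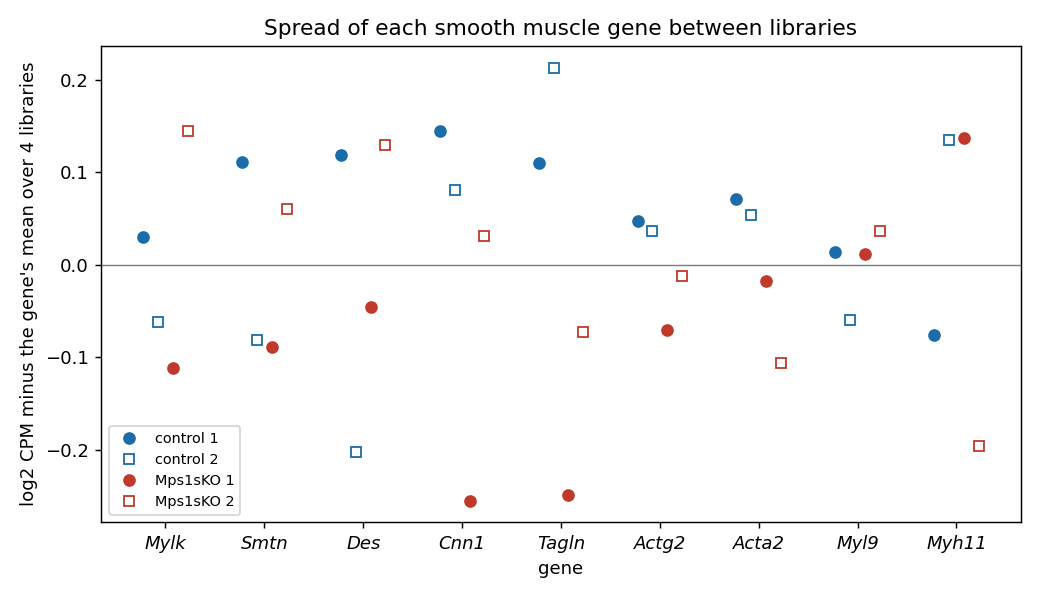
Log2 CPM of each of the 9 genes, centred on its own mean over the 4 libraries. *Mylk*, *Smtn* and *Des* have their higher values in control 1 and Mps1sKO 2, *Myh11* in control 2 and Mps1sKO 1, and the spread over libraries runs from 0.10 (*Myl9*) to 0.46 (*Tagln*).

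Together the 9 genes took 0.164% of all counts in both control libraries and 0.159% and 0.156% in the Mps1sKO libraries. Their summed level was 1635 and 1627 CPM in control and 1597 and 1570 CPM in Mps1sKO, so both Mps1sKO libraries were lower. *Acta2* alone made up 36.2% and 36.0% of these counts in control and 34.9% and 33.4% in Mps1sKO libraries. Without *Acta2*, the sum was 1043 and 1041 CPM in control and 1040 and 1046 CPM in Mps1sKO, which overlapped.

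Levels of different genes were compared per length as RPKM, that is CPM per kilobase of annotated exon. *Acta2* stood first with 270, 267, 254 and 239 RPKM in control 1, control 2, Mps1sKO 1 and Mps1sKO 2, and *Myl9* second with 249, 237, 249 and 253 RPKM. *Acta2* was above *Myl9* in 3 of the 4 libraries and below it in Mps1sKO 2, so this pair was not separated beyond its spread. Both exceeded 99.5% of the tested protein-coding genes.

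*Myh11* followed with a mean of 41.2 RPKM, *Mylk* with 28.9 and *Smtn* with 11.3, each above the next in all 4 libraries. *Cnn1* (9.55 RPKM) and *Actg2* (9.13 RPKM) overlapped, *Cnn1* being higher in 3 of the 4 libraries. *Des* was lower at 6.42 RPKM, close to the middle of the tested coding genes (above 50.7% of them). *Tagln* was last at 1.27 RPKM, above only 22.9% of the coding genes and 202-fold below *Acta2*. The gap was 65.0-fold when the counts of each were set against its exon not shared with other genes. The order thus put *Acta2* and the regulatory light chain near the top of the testis transcriptome. The *Tagln* row, as counted, stood far down in it, with the limit given next.

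The *Tagln* row needs a limit on its level. Of its 1988 annotated exonic bases, 1349 (67.9%) are also exonic in a gene on the opposite strand, 1241 of them in the antisense gene *Gm48529* and 108 in *Pcsk7*. Only 0.670% of 15521 tested protein-coding genes share as large a part of their exons, and the median share is 0. The paper names a NEBNext Ultra RNA library kit. Whether the libraries or the counting kept strand is not given in the sources used here. If strand was not kept, reads from the shared bases could not be assigned to either gene, and the *Tagln* count would rest on the rest of the gene.

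With all its counts set against the unshared exon alone, *Tagln* had 4.24 and 4.55 CPM per kilobase in control libraries. In Mps1sKO libraries it had 3.31 and 3.73. On this scale it was still the lowest of the 9 genes, 10.4-fold below *Myh11*, and *Des* came next with a mean of 6.82. The scale takes all of the unshared exon as countable. Fragments that reach into shared exon could also be lost, so it does not settle the place of *Tagln* in the order. *Gm48529* itself had 71 and 98 counts in control and 46 and 48 counts in Mps1sKO libraries, a number close to that of *Tagln* (log2 fold change −0.68, edgeR adjusted p = 0.505). *Pcsk7*, which encodes a proprotein convertase, had between 925 and 1263 counts. The summed counts of *Tagln* and *Gm48529* were 144 and 182 in control and 95 and 112 in Mps1sKO libraries.

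**Figure D4:**
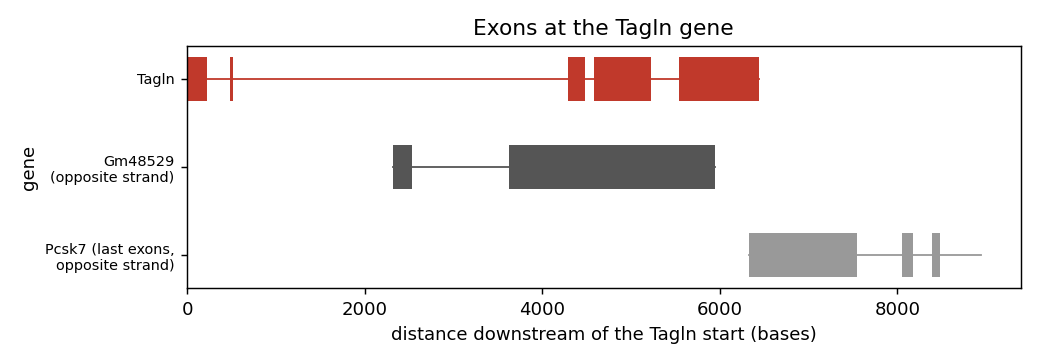
Annotated exons of *Tagln* and of the overlapping opposite-strand genes, by distance in bases downstream of the *Tagln* start (boxes exons, lines introns). The antisense gene *Gm48529* covers 1241 of the 1988 exonic bases of *Tagln* and *Pcsk7* covers 108 at its far end.

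Among the other genes, *Smtn* shared 16.3% of its exonic bases with opposite-strand genes, *Mylk* 6.85% and *Des* 5.86%. The other 5 shared none. Identical copies were less of a limit. No stretch of 150 bases, the read length, in a transcript of the 9 genes was found in the same orientation in an annotated transcript of another gene. Copies that differ at single bases were not searched for. The striated muscle actins were almost absent, with at most 7 counts in a library for *Acta1* and 11 for *Actc1*. The non-muscle actins were abundant, as *Actb* had 347 RPKM in control and 348 in Mps1sKO, and *Acta2* amounted to 0.807, 0.740, 0.660 and 0.766 of *Actb* in the 4 libraries.

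Non-muscle relatives were the more abundant form for calponin and the less abundant one for the myosin chains. As counted they were also the more abundant form for transgelin, where the limit on the level of *Tagln* applies. *Cnn3*, an acidic calponin, had 98.2 RPKM in control and 103 in Mps1sKO, and *Tagln2*, the transgelin of non-muscle cells, had 26.3 and 25.1 RPKM, both well above *Cnn1* and *Tagln*. *Myh11* exceeded the non-muscle heavy chains *Myh9* (18.5 and 20.1 RPKM) and *Myh10* (10.9 and 10.6 RPKM), and *Myl9* exceeded the light chain *Myl12a* (39.9 and 40.2 RPKM). Of 13 such relatives 10 were tested, 7 had a log2 fold change above 0 and 3 below, and 0 passed an adjusted p of 0.05.

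The wider contractile program was read from 61 further smooth muscle genes in 3 lists, of which 59 were tested. Of these, 0 passed an adjusted p of 0.05 in edgeR (the lowest was 0.494), 40 had a log2 fold change above 0 and 19 below, and the median was 0.027. An unadjusted p below 0.05 was found for 6 of them (10.2%, against 9.3% of all genes), and the groups did not overlap in 35.6% of them, against 41.4% of all genes. Neither share stood out from the background.

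Among 24 other contractile and cytoskeletal genes, 19 had a log2 fold change above 0 and 5 below, with a median of 0.031. Their summed level was 3563 and 3499 CPM in control and 3759 and 3667 CPM in Mps1sKO libraries. Vimentin (*Vim*) had the highest mean CPM, at 640 and 725 CPM in control and 761 and 659 CPM in Mps1sKO, but filamin A (*Flna*) was above it in 2 of the 4 libraries. *Synm*, which encodes synemin, a partner of desmin filaments, had the highest log2 fold change (0.28, adjusted p = 0.527), and *Csrp2*, a LIM protein of muscle, the lowest (−0.25, adjusted p = 0.527).

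In the signalling list, 22 of 23 genes were tested, 12 with a log2 fold change above 0 and 10 below. *Calm2* had the lowest log2 fold change (−0.22, adjusted p = 0.554) and the vasopressin receptor gene *Avpr1a* the highest (0.20, adjusted p = 0.736). *Pln*, the phospholamban gene, had at most 2 counts in a library and was not tested.

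Of 14 transcription regulators 13 were tested, 9 with a log2 fold change above 0 and 4 below. *Tead1*, a partner of YAP, had the most counts, at 101 and 97.3 CPM in control and 103 and 114 CPM in Mps1sKO libraries. *Gata6* had the highest log2 fold change (0.39, edgeR adjusted p = 0.524), and *Cebpb* the lowest (−0.61, edgeR adjusted p = 0.494). The factors nearest to the contractile genes, chosen here after their values were seen, were *Srf*, at 93.5, 76.0, 82.4 and 98.1 CPM in control 1, control 2, Mps1sKO 1 and Mps1sKO 2, and its coactivator *Myocd*, at 7.42, 4.36, 5.13 and 5.03 CPM. The groups overlapped for both.

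Genes of peritubular cells outside the contractile apparatus were set beside the smooth muscle genes. Of 16 such genes, 15 had a log2 fold change above 0, 1 below, and 0 passed an adjusted p of 0.05. In 10 of them both Mps1sKO libraries were above both control libraries, where 20.3% of all genes were placed so. Their sum was 2858 and 2736 CPM in control and 3262 and 2933 CPM in Mps1sKO libraries, or 111% of control, whereas that of the 9 contractile genes was 97.1% of control. No test of the difference between the lists was made.

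*Col4a1*, a basement membrane collagen, had the most counts in this list, at 452 and 408 CPM in control and 563 and 455 CPM in Mps1sKO libraries. *Inhba*, the activin subunit gene, had the highest log2 fold change (0.38, edgeR adjusted p = 0.522), and *Fn1*, fibronectin, the lowest (−0.22, adjusted p = 0.551). The hedgehog targets *Ptch1* (249 and 239 CPM in control, 268 and 287 CPM in Mps1sKO) and *Gli1* (74.1 and 69.2 CPM, 76.3 and 85.5 CPM) did not overlap between groups. Groups did not overlap in 41.4% of all genes either, and the edgeR adjusted p-values of the pair were 0.563 and 0.608.

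Markers of blood vessels and of the epididymal duct were summed in the same way. Vascular mural cell genes summed to 322 and 307 CPM in control and 344 and 321 CPM in Mps1sKO libraries over 12 genes, 11 of them with a log2 fold change above 0 and 1 below, and 0 passing the test. Endothelial genes, 10 in number, summed to 211 and 204 CPM against 223 and 227 CPM. Epididymal duct genes, whose tube has its own muscle coat, were lowest in control 2, where they summed to 14.9 CPM, with *Crisp1* at 0 counts in every library.

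Skeletal muscle genes, which could arrive with attached tissue, summed to 43.8 and 56.5 CPM in control and 49.3 and 34.9 CPM in Mps1sKO libraries. The highest of them were *Ttn* and *Actn3*, with means of 14.8 and 11.9 CPM over the 4 libraries. *Ckm* had at most 12 counts in a library and *Mb* at most 2. Macrophage genes stood at 130 and 133 against 139 and 122 CPM, and Leydig cell genes at 720 and 723 against 777 and 666 CPM. Of the 9 germ cell genes, all had a log2 fold change below 0, in 8 both Mps1sKO libraries were below both control libraries (21.1% of all genes), and their sum was 73.5% of control, while for Sertoli cells it was 120%. Most of the Sertoli sum was *Clu*, at means of 3239 of 5024 CPM in control and 3855 of 6040 CPM in Mps1sKO. The groups overlapped for *Clu*, and all 9 tested Sertoli cell genes had a log2 fold change above 0. None of these lists held a gene past an adjusted p of 0.05, and the part of these cells in the values of *Acta2*, *Cnn1* or any other smooth muscle gene was not tested.

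**Figure D5:**
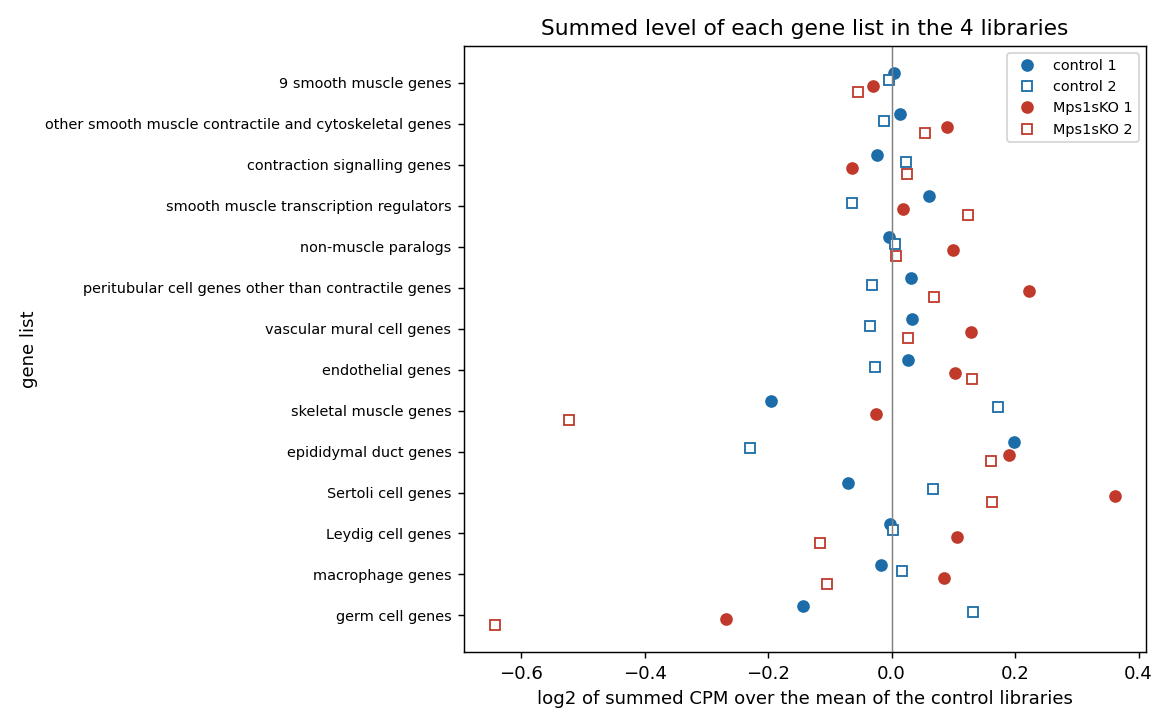
Summed CPM of the smooth muscle genes and of each other gene list, with 1 point for each library, as log2 of the ratio to the mean of the control libraries. Group means put the smooth muscle genes at 97.1% of control, peritubular genes outside the contractile apparatus at 111%, Sertoli cell genes at 120% and germ cell genes at 73.5%.

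The genes whose pattern over the 4 libraries came closest to the mean pattern of the 9 were *Sdha*, *Ubr4*, *Crls1*, *Tex264* and *Gli2*, among 11094 genes with a mean of at least 10 CPM. The measure was the Euclidean distance between centred log2 CPM values, which was 0.00842 for *Sdha* and 0.0160 for *Gli2*. The mean pattern itself spanned only 0.14 on the log2 scale, from 0.063 in control 1 to −0.077 in Mps1sKO 1.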

How the data were processed

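Whole testis RNA from 2 control and 2 Mps1sKO samples was sequenced as paired-end mRNA libraries on an Illumina NovaSeq. The deposited table gives read counts per gene, made by the authors, and FPKM values. Per the submitters' processing notes, HISAT2 2.0.5, featureCounts and DESeq2 1.16.1 were used with mm10. The authors' FPKM values were used only for a check of their scaling to the counts.

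Counts were fitted in edgeR 4.0.16 (R 4.3.3), with filterByExpr, TMM factors, estimateDisp and the quasi-likelihood F test, and p-values were adjusted by Benjamini-Hochberg over 20561 of 55820 rows. CPM used total counts (23311689 to 28607746 per library) multiplied by the TMM factors, so that 3 counts correspond to 0.104 to 0.129 CPM, and RPKM divided CPM by exonic length. Rows without an annotated identifier (284) were kept. Counting errors and intervals do not cover preparation of the libraries. DESeq2 1.42.0 and limma 3.58.1 were alternatives. Exon overlaps came from GENCODE M21 on GRCm38, whose exonic lengths equalled those of the table for all 55450 rows found there.

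Named were all 9 genes, *Ttk*, and in each other list the genes with the lowest and highest log2 fold change and the highest level, with further genes where stated or where a paralog, overlap or marker was described. Of the genes that the rule names, 1 is not reported here. The genes and lists were chosen with earlier results of these data known. Replicate libraries differed beyond counting noise (chi-square per degree of freedom of 9.39 in control and 12.9 in Mps1sKO), which is more than resequencing of 1 library would give.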

Additional observations from a re-analysis of the deposited data

How the results depend on the processing

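No smooth muscle gene among the 9 passed an adjusted p of 0.05 under DESeq2, its size factors, library size only, other filters, limma-voom, annotated genes only or either replicate block. Their median log2 fold change lay between −0.074 (library size only) and −0.048 (DESeq2), and between −0.096 and −0.054 without each library in turn. Without a library there was no test. *Des*, *Myh11*, *Mylk* and *Smtn* each changed sign without 2 of the 4 libraries. *Acta2* (−0.17 to −0.080), *Actg2*, *Cnn1*, *Tagln* and *Myl9* kept their sign.

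Labels number the replicates in both groups, but same-numbered libraries deviated in opposite directions (correlation −0.24 over 20561 genes). With the number as a replicate block, the median was −0.059 and 0 of the 9 genes were called. In a crossed pairing, chosen after seeing the data, 1 of the 59 other smooth muscle genes and 0 of the 9 were called, and 1 of the 9 had an unadjusted p below 0.05. Depth limited *Tagln* most, with 49 counts in its lowest library.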
